A study of Cyanidioschyzon merolae strain 10D with 12 samples.

Results

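The comparison described here set all 6 libraries of the unicellular red alga Cyanidioschyzon merolae taken at low CO2 against all 6 taken at high CO2, whatever the time in culture. These 12 libraries are the whole series. Wild-type cells of strain 10D grew in light in batch cultures aerated with 5% CO2 (high CO2, HC), were moved to 0.04% CO2 (low CO2, LC) for 24 h, and were then returned to 5% CO2 for another 24 h. RNA was sequenced just before the shift (HC 0 h), after 3 h and 24 h of low CO2 (LC 3 h, LC 24 h), and after the return (HC 24 h recovery), with 3 libraries at each of the 4 time points. The labels speak of 3 independent biological replicates that went through this series of shifts, so libraries of different time points may come from the same culture, and the p-values measure the spread between libraries. No culture kept at 5% CO2 throughout is among the groups, and both low-CO2 points lie between the high-CO2 points in time.

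Members were the genes whose lowest low-CO2 library lay above the highest high-CO2 library, called wholly above here, or whose highest low-CO2 library lay below the lowest high-CO2 library, called wholly below. Levels were CPM, counts scaled to a common library total with edgeR's TMM factors, and the gap is the log2 distance between the nearest libraries of the opposite CO2 levels. Of 4833 tested genes, 551 were wholly above (11.4%) and 386 wholly below (7.99%), 937 in all. In the same libraries, edgeR's quasi-likelihood test of low against high CO2 called 914 genes higher (18.9%) and 812 lower (16.8%) at an adjusted p under 0.05. Of the genes wholly above, 549 were among the genes called higher, and 385 of those wholly below were among the genes called lower. Because the rule and the test read the same libraries, that overlap supports nothing by itself.

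Cyanidioschyzon merolae lives in hot acidic springs, where dissolved inorganic carbon is almost entirely CO2. Rubisco, the CO2-fixing enzyme of the Calvin-Benson cycle, also accepts oxygen, and each oxygenation yields 2-phosphoglycolate, which photorespiration recycles through the plastid, peroxisome and mitochondrion to 3-phosphoglycerate while releasing CO2 and ammonia. Many algae kept at air levels of CO2 operate a carbon concentrating mechanism, in which bicarbonate transporters and carbonic anhydrases raise the CO2 supply at Rubisco. Gene names below are those of the best Arabidopsis match given in the deposited table. They are a match and not a tested function in this alga, and matches with an expectation value above 1e-05 are named as weak.

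Library totals ranged from 9671516 to 28346661 counts. On the first principal component, which held 52.4% of the variance, library 1 of LC 3 h lay between the high-CO2 libraries and the other low-CO2 libraries. Library 1 of LC 3 h or of LC 24 h was the low-CO2 library that set the boundary for 398 of the 551 genes wholly above and for 254 of the 386 wholly below. Without library 1 of LC 3 h, the number of genes wholly below was 690 and the number wholly above 756. Library 1 of LC 24 h alone set the boundary for 235 of the genes wholly above and 76 of those wholly below. Without it, 618 genes were wholly above and 454 wholly below. The counts therefore depend on these libraries, while the values below are given with both. Bulk RNA gives relative levels only, so a gene's share can move because its own RNA or the rest of the RNA changed. The kit selects poly(A) RNA and does not keep strand, so reads of a gene and of a partner on the opposite strand cannot be told apart.

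The separation was lopsided in size. Of the 551 genes wholly above, 185 differed by at least 2-fold and 62 by at least 4-fold, and their median log2 difference was 0.70. Of the 386 wholly below, 44 differed by at least 2-fold and 2 by at least 4-fold, with a median of -0.54. All tested genes had a median of 0.00446. A gap of at least 1 log2 unit was found for 68 genes, all of them wholly above. The widest gap was 5.35 upward and 0.90 downward. In TPM, the deposited per-length scale of relative transcript levels, the genes wholly above together took 6.4% to 6.71% of the total in the high-CO2 libraries, 16.9% to 22.5% at LC 3 h and 14.7% to 16.6% at LC 24 h. The genes wholly below took 11.8% to 13.4% at high CO2 and 7.16% to 8.41% at low CO2.

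**Figure D1:**
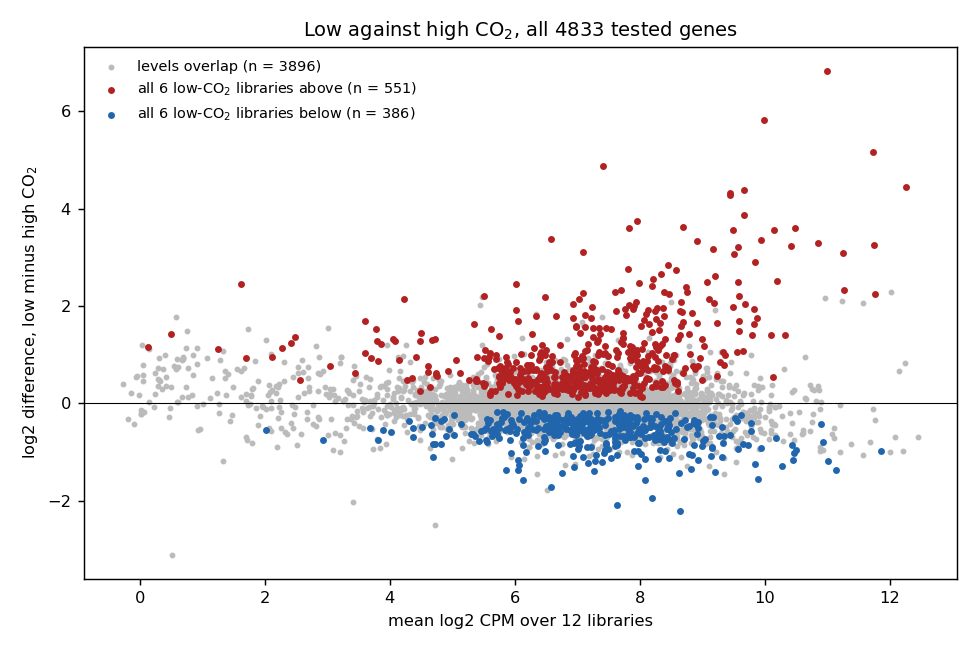
Each point is one of the 4833 tested genes, placed by its mean log2 CPM over the 12 libraries (x axis) and its log2 difference, low minus high CO2 (y axis). Red points are the 551 genes wholly above at low CO2 and blue points the 386 wholly below; the red points reach 6.83 log2 units and the blue points lie mostly within 1 log2 unit of 0.

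The genes tied to carbon uptake did not all move together, and the alpha-type carbonic anhydrases differed among themselves. One alpha-type carbonic anhydrase, CMT416C, and all 3 genes named as anion exchangers were wholly above at low CO2, whereas 3 other carbonic anhydrase genes were not called. Of all tested genes, 11.4% were wholly above. Carbonic anhydrases interconvert CO2 and bicarbonate. CMT416C was counted at 35.3, 40.4 and 38.7 CPM at HC 0 h and 31.7, 36.3 and 31 CPM at HC 24 h recovery. Low CO2 gave 2347, 3142 and 3048 CPM at LC 3 h and 995, 1240.2 and 1244 CPM at LC 24 h. Every low-CO2 library exceeded every high-CO2 library by a wide margin, and the gene stood 56.3-fold higher at low CO2 (log2 difference 5.82 ± 0.35 SE, adjusted p = 4.24e-07). Its level at LC 24 h was below that at LC 3 h (log2 difference -1.29 ± 0.14 SE, adjusted p = 4.05e-05), and HC 24 h recovery did not differ from HC 0 h beyond the spread (log2 difference -0.21 ± 0.14 SE, adjusted p = 0.34). The other alpha-type gene, CMI270C, was counted at 725, 890.1 and 699.7 CPM at HC 0 h and 701, 461 and 405 CPM at HC 24 h recovery. The low-CO2 values were 1336, 1329 and 1156 CPM at LC 3 h and 415, 303 and 280.2 CPM at LC 24 h. It was high at LC 3 h and low at LC 24 h, so that low and high CO2 overlapped (log2 difference over all libraries 0.31 ± 0.42 SE, adjusted p = 0.582). Both gamma-type genes, CMD023C and CMM052C, which resemble carbonic anhydrase subunits of mitochondrial complex I, also overlapped, with log2 differences of 0.11 ± 0.07 and -0.41 ± 0.15 SE.

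Among the anion exchangers, CMI004C and CMT006C share the Arabidopsis match BOR4, a borate exporter of the anion exchanger family to which animal bicarbonate exchangers also belong. CMI004C was counted at 173, 167 and 177 CPM at HC 0 h and 179, 165 and 157 CPM at HC 24 h recovery. Levels at low CO2 were 537, 863 and 819 CPM at LC 3 h and 481, 524 and 559.8 CPM at LC 24 h. Low CO2 lay above high CO2 throughout (log2 difference 1.89 ± 0.15 SE, adjusted p = 3.57e-06). CMT006C behaved alike, with 464 to 904 CPM (median 554) at low CO2 and 145 to 199.8 CPM (median 179.6) at high CO2 (log2 difference 1.87 ± 0.18 SE, adjusted p = 1.22e-05). The pair shares its description and best match, and both genes lie next to a copper amine oxidase gene. The separate values are uncertain where reads fit both copies, and the similarity of the sequences was not tested. The third, CMR009C, rose less, with 175 to 302 CPM (median 209) at low CO2 and 109 to 144 CPM (median 135) at high CO2 and a log2 difference of 0.81 ± 0.15 SE (adjusted p = 0.00109).

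Most of the photorespiration genes stood higher at low CO2. Of 13 tested members of that list, 8 were wholly above (61.5%) and 1 wholly below (7.69%), beside 11.4% and 7.99% of all tested genes. Called higher were 9 (69.2%) and lower 2 (15.4%), beside 18.9% and 16.8%. The median log2 difference was 3.10 against 0.00446 over all genes. The members that rose span the route from 2-phosphoglycolate to serine. The plastid phosphatase that opens it, CMR421C (PGLP1), was counted at 158, 180.3 and 168 CPM at HC 0 h and 156, 192 and 186 CPM at HC 24 h recovery. The LC 3 h libraries gave 2015, 2943 and 2964 CPM and the LC 24 h libraries 741, 1023 and 1038 CPM. It was 10.3-fold higher at low CO2 (log2 difference 3.36 ± 0.35 SE, adjusted p = 2.37e-05). Glycolate oxidase CMQ436C, which turns glycolate into glyoxylate and hydrogen peroxide in the peroxisome, was counted at 90.2, 123 and 119.7 CPM at HC 0 h and 76.6, 105 and 110.2 CPM at HC 24 h recovery. Its low-CO2 libraries held 1674, 2300.1 and 2369 CPM at LC 3 h and 754, 1043 and 1038 CPM at LC 24 h. Its lowest low-CO2 library was 2.61 log2 units above its highest high-CO2 library (log2 difference 3.88 ± 0.31 SE, adjusted p = 3.21e-06). Catalase CMI050C, which breaks down the peroxide, was counted at 329, 404 and 383 CPM at HC 0 h and 512, 703 and 712 CPM at HC 24 h recovery. Under low CO2 there were 3602, 4909 and 4816 CPM at LC 3 h and 3499.8, 4625 and 4562 CPM at LC 24 h. It rose at low CO2 (log2 difference 3.10 ± 0.24 SE, adjusted p = 2.98e-06). LC 24 h minus LC 3 h gave a log2 difference of -0.07 ± 0.18 SE, adjusted p = 0.762, and recovery was higher than HC 0 h (log2 difference 0.79 ± 0.18 SE, adjusted p = 0.0188).

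Glyoxylate is aminated to glycine by transaminases. The gene matched to alanine:glyoxylate aminotransferase AGT1, CMS429C, was counted at 151, 179 and 163 CPM at HC 0 h and 166, 224 and 223 CPM at HC 24 h recovery. Low CO2 gave 7977, 10624 and 10427 CPM at LC 3 h and 3107, 3934 and 3780.1 CPM at LC 24 h. This was a 36.1-fold difference (log2 difference 5.17 ± 0.39 SE, adjusted p = 2.33e-06). Its relatives did not follow. CMR117C (AGT2) lay wholly below with 104 to 115 CPM (median 107) at low CO2 and 119 to 141 CPM (median 132) at high CO2 (log2 difference -0.28 ± 0.06 SE, not called without LC 24 h, adjusted p = 0.0511), and CMQ466C (AGT3), at most 4.81 CPM, was not called (log2 difference -0.09 ± 0.21 SE).

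The glycine cleavage system and serine hydroxymethyltransferase then convert glycine to serine in the mitochondrion, releasing CO2 and ammonia. The P-protein CMR282C (GLDP2) was counted at 594, 702 and 659.9 CPM at HC 0 h and 546, 682 and 742 CPM at HC 24 h recovery. The low-CO2 values were 6707, 11051 and 10712 CPM at LC 3 h and 2723, 2969.7 and 2989.7 CPM at LC 24 h (log2 difference 3.24 ± 0.41 SE, adjusted p = 9.25e-05). The T-protein CMG086C had 809 to 4485 CPM (median 1986) at low CO2 and 192 to 306 CPM (median 278) at high CO2 (log2 difference 3.23 ± 0.45 SE, adjusted p = 0.000193). Both were highest in the LC 3 h libraries and still above every high-CO2 library after 24 h. The H-protein CMF098C also passed the test (log2 difference 1.06 ± 0.34 SE, adjusted p = 0.0284) and was counted at 399, 467 and 426 CPM at HC 0 h and 347, 390.3 and 432 CPM at HC 24 h recovery. Levels at low CO2 were 1058, 1364 and 1459 CPM at LC 3 h and 339, 465 and 450.2 CPM at LC 24 h. Its LC 24 h values were not above the high-CO2 values, so the CO2 levels overlapped. The call did not hold without HC 0 h (adjusted p = 0.162), recovery (0.162) or LC 3 h (0.814), nor without libraries 2 or 3 of LC 3 h, library 1 of HC 0 h or libraries 1 or 2 of recovery (0.0512 to 0.0654). At 24 h its low-CO2 and recovery libraries did not differ beyond the spread (log2 difference 0.10 ± 0.15 SE, adjusted p = 0.604). The mitochondrial-type hydroxymethyltransferase CMO142C (SHM1) was counted at 182, 212 and 210.2 CPM at HC 0 h and 225, 255 and 234 CPM at HC 24 h recovery. The LC 3 h libraries gave 2833, 4467 and 4363 CPM and the LC 24 h libraries 1247, 1516 and 1484 CPM (log2 difference 3.59 ± 0.36 SE, adjusted p = 1.66e-05). Of 2 genes matched to SHM4, CMN332C was wholly above (log2 difference 1.59 ± 0.15 SE) and CMI091C was called lower with overlap (log2 difference -0.44 ± 0.13 SE). The latter call was lost without HC 0 h or LC 24 h (adjusted p = 0.207 and 0.152). A second aminomethyltransferase-like gene, CMK259C, was not called (log2 difference 0.11 ± 0.14 SE).

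The route closes with hydroxypyruvate reductase and glycerate kinase, which were not in that list and are named with their values known. CMS425C (HPR) had 1007 to 2313 CPM (median 1435) at low CO2 and 143 to 269 CPM (median 209) at high CO2 (log2 difference 2.91 ± 0.25 SE, adjusted p = 5.22e-06), and CMQ289C, with a weaker match to the same enzyme, had 181 to 454 CPM (median 294) at low CO2 and 136 to 159 CPM (median 151) at high CO2 (log2 difference 1.06 ± 0.24 SE, adjusted p = 0.00473). CMK141C, described as related to phosphoribulokinase and uridine kinase and placed by the deposited functional category under glycerate kinase, was counted at 80.8, 84.7 and 90.6 CPM at HC 0 h and 82.2, 90.1 and 90.6 CPM at HC 24 h recovery. Its low-CO2 libraries held 598, 997 and 998 CPM at LC 3 h and 307, 403 and 402 CPM at LC 24 h (log2 difference 2.83 ± 0.29 SE, adjusted p = 1.98e-05). The low-CO2 libraries of CMS425C and CMK141C all exceeded the high-CO2 libraries by more than 1 log2 unit. Of the 8 photorespiratory genes wholly above, 7 were called lower at LC 24 h than at LC 3 h (87.5%). The same held for 40.7% of all genes wholly above and 31.3% of all tested genes.

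**Figure D2:**
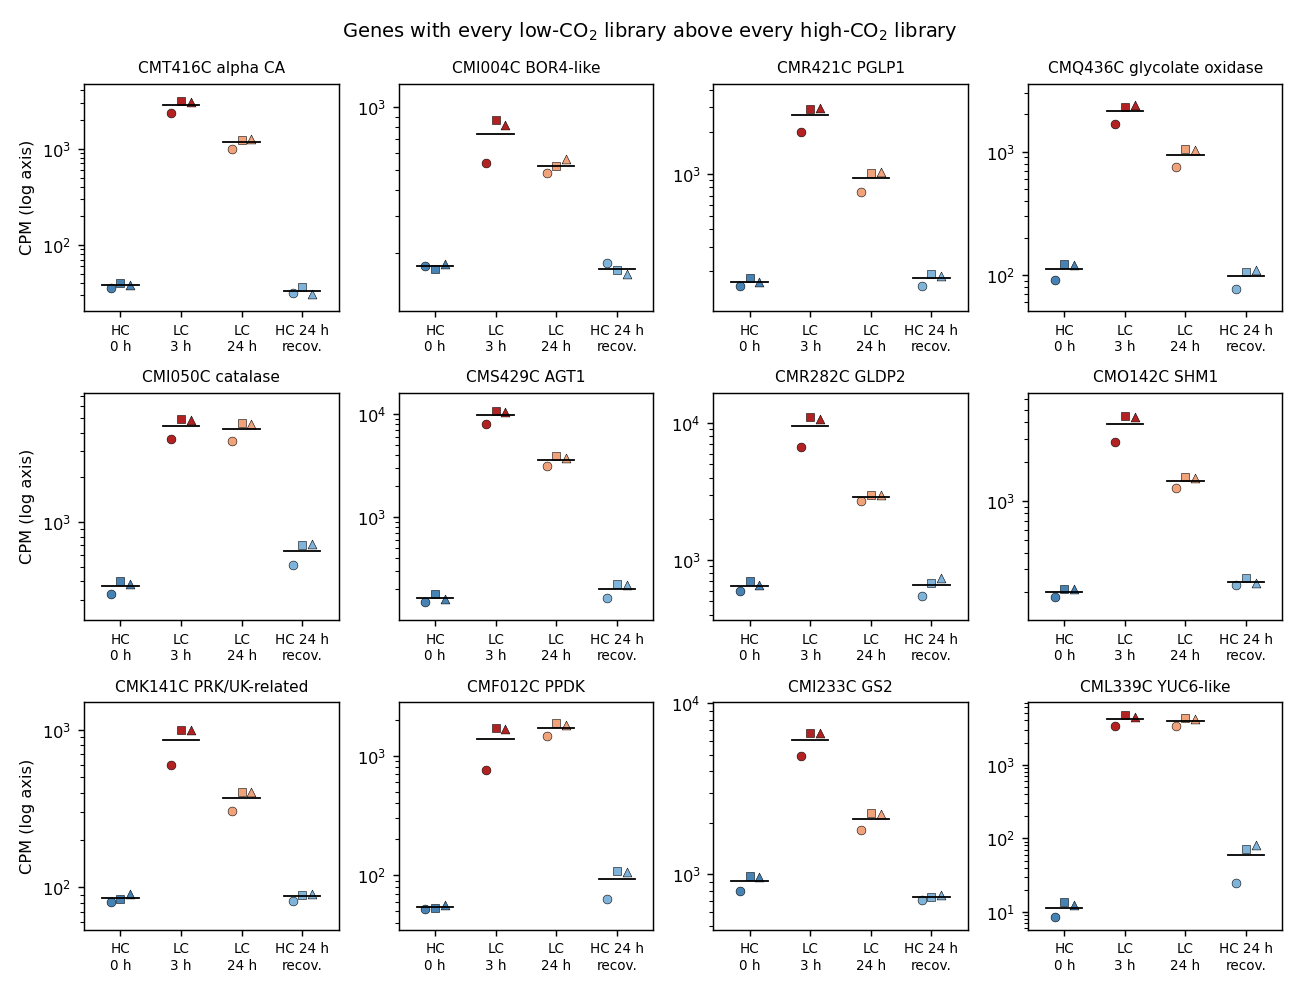
CPM on a log axis for 12 genes wholly above at low CO2, by time point; each symbol is one library (circle replicate 1, square 2, triangle 3) and each bar the mean of 3. Red and orange low-CO2 points lie above all blue high-CO2 points in every panel, most genes peak at LC 3 h, and catalase, PPDK and the YUC6-like gene are near the same level at LC 3 h and LC 24 h.

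Some other enzymes that handle glyoxylate or methylglyoxal are given one by one, chosen by size or after their values were seen. CMJ086C, matched to glyoxylate reductase GLYR2, which returns glyoxylate to glycolate, had 599.9 to 2138 CPM (median 1167) at low CO2 and 107 to 125 CPM (median 109.8) at high CO2 (log2 difference 3.55 ± 0.33 SE, adjusted p = 9.95e-06). CMP184C, of the glyoxalase I family that detoxifies methylglyoxal, had 217 to 709 CPM (median 395) at low CO2 and 31.6 to 37.1 CPM (median 34.1) at high CO2 (log2 difference 3.74 ± 0.27 SE, adjusted p = 1.4e-06), and a further glyoxalase I homolog, CMP124C, had a log2 difference of 0.99 ± 0.15 SE (adjusted p = 0.000449). In the antioxidant defence list as a whole, 13 of 54 tested genes were wholly above (24.1%) and 4 wholly below (7.41%), beside 11.4% and 7.99% of all tested genes. The falling members included 2 peroxiredoxins, enzymes that reduce peroxides with thiols: CMN109C (log2 difference -0.83 ± 0.13 SE) and CMC039C (-0.85 ± 0.09 SE).

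One-carbon units carried by tetrahydrofolate link glycine cleavage to serine, formate and methyl groups. In the deposited functional category for one-carbon metabolism, 8 of 16 tested genes were wholly above and 1 wholly below, beside 11.4% and 7.99% of all genes. Formate-tetrahydrofolate ligase CMJ099C (THFS) was counted at 109, 130 and 129 CPM at HC 0 h and 85.6, 118 and 127 CPM at HC 24 h recovery. Under low CO2 there were 1066, 1671 and 1662 CPM at LC 3 h and 464, 687 and 691 CPM at LC 24 h (log2 difference 3.16 ± 0.32 SE, adjusted p = 1.75e-05). The dehydrogenase and cyclohydrolase CMR167C, which interconverts the folate-bound units, had 317 to 698 CPM (median 446) at low CO2 and 230.2 to 283 CPM (median 245) at high CO2 (log2 difference 0.99 ± 0.18 SE). S-formylglutathione hydrolase CMQ397C and the S-nitrosoglutathione reductase and formaldehyde dehydrogenase homolog CMS125C, which act in turn on formaldehyde, rose by 1.75 and 0.99 on the log2 scale (adjusted p = 7.66e-06 and 0.00161). Not all genes of the category rose, since 2 were called lower and 6 were not called. Methylenetetrahydrofolate reductase CMT610C, which commits the unit to methionine, was wholly below. It had 223 to 265 CPM (median 252) at low CO2 and 346 to 406 CPM (median 373) at high CO2 (log2 difference -0.60 ± 0.07 SE, adjusted p = 4.79e-05).

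Peroxisome assembly genes were grouped after their values had been seen, so the counts only describe. Of 19 tested genes named as peroxins or peroxisomal membrane proteins, 7 were wholly above (36.8%) and none wholly below, beside 11.4% and 7.99% of all tested genes. Called higher were 10 (52.6%) and lower 1 (5.26%), beside 18.9% and 16.8%. CMK124C (PEX5), the import receptor for matrix proteins, was counted at 96.7, 105 and 97 CPM at HC 0 h and 98.2, 102 and 94.8 CPM at HC 24 h recovery. Low CO2 gave 303, 518 and 501 CPM at LC 3 h and 288, 329 and 320.2 CPM at LC 24 h (log2 difference 1.93 ± 0.15 SE, adjusted p = 3.23e-06). CML252C (PEX6), an ATPase that extracts the receptor for reuse, had 104 to 336 CPM (median 154) at low CO2 and 38.9 to 56.6 CPM (median 48) at high CO2 (log2 difference 2.04 ± 0.27 SE, adjusted p = 0.000139). CMN269C, a weak match to PEX11D of the family that proliferates peroxisomes, had a log2 difference of 1.60 ± 0.13 SE, and the membrane proteins CMG125C and CMS057C of 1.62 ± 0.28 and 1.54 ± 0.35 SE. The ubiquitin ligase subunit CMT012C (PEX10) separated with a small log2 difference (0.24). A second gene matched to PEX5, CML093C, and PEX14 (a weak match) and PEX19 homologs CMN043C and CMQ019C, the docking and membrane protein receptors, were not called (0.22, 0.24 and 0.17).

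Of 4 enzymes of C4-type carboxylation, 3 were wholly above (75.0%), beside 11.4% of all tested genes, and 1 was not called. These enzymes interconvert phosphoenolpyruvate, pyruvate, oxaloacetate and malate. Pyruvate orthophosphate dikinase CMF012C, which regenerates phosphoenolpyruvate, was counted at 52.3, 53.4 and 56.7 CPM at HC 0 h and 63.5, 109 and 106 CPM at HC 24 h recovery. The low-CO2 values were 755, 1714 and 1667 CPM at LC 3 h and 1453, 1861 and 1813 CPM at LC 24 h. Library 1 of LC 3 h was the lowest of the low-CO2 libraries, yet it stood 2.79 log2 units above the highest at high CO2 (log2 difference 4.39 ± 0.30 SE, adjusted p = 1.1e-06). Phosphoenolpyruvate carboxylase CME095C had 678 to 1502 CPM (median 827) at low CO2 and 437 to 584 CPM (median 458) at high CO2 (log2 difference 1.06 ± 0.22 SE, adjusted p = 0.00245), and phosphoenolpyruvate carboxykinase CMN285C had 418 to 676 CPM (median 506) at low CO2 and 278 to 364 CPM (median 315) at high CO2 (log2 difference 0.73 ± 0.14 SE, adjusted p = 0.00189). The carboxykinase was not called without HC 0 h (adjusted p = 0.0607). NADP-malic enzyme CMJ051C had a log2 difference of -0.25 ± 0.11 SE (adjusted p = 0.0984).

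The Calvin-Benson list moved little as a group. Of 15 tested members, 4 were called higher and 2 lower, 3 were wholly above and 1 wholly below, and the median log2 difference was 0.11. One of the 3 wholly above is the glycerate kinase-type gene CMK141C described with photorespiration. The others were 1 transketolase and 1 fructose bisphosphatase gene, each with close relatives that overlapped. Transketolase CMO121C was counted at 1208, 1522 and 1333 CPM at HC 0 h and 980.3, 1069.7 and 1204 CPM at HC 24 h recovery. Levels at low CO2 were 5704, 8757 and 8623 CPM at LC 3 h and 3317, 4089 and 4041 CPM at LC 24 h (log2 difference 2.24 ± 0.28 SE, adjusted p = 9.22e-05). Transketolase CMO128C, at a similar level, had 1192 to 2398 CPM (median 1401) at low CO2 and 1412 to 1797 CPM (median 1511) at high CO2 (log2 difference 0.11 ± 0.21 SE, adjusted p = 0.703). Fructose bisphosphatase CMD041C had 88.9 to 176 CPM (median 111) at low CO2 and 31.8 to 41.8 CPM (median 35.7) at high CO2 (log2 difference 1.79 ± 0.18 SE, adjusted p = 1.75e-05), whereas CME127C and CMO245C had log2 differences of -0.01 ± 0.07 and -0.12 ± 0.12 SE, and CMP129C was wholly below (-0.31 ± 0.08 SE). Phosphoribulokinase CMF117C, which makes Rubisco's substrate, did not differ beyond the spread (0.06 ± 0.20 SE, adjusted p = 0.843), nor did sedoheptulose bisphosphatase CMI196C (0.38 ± 0.17 SE). CP12-3 homolog CMR315C, a regulator of the cycle, was called higher with overlap (0.54 ± 0.11 SE). The calls of CMR315C without HC 0 h and of CMP129C without LC 24 h or recovery were lost (adjusted p = 0.0889, 0.0793 and 0.0526).

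Rubisco itself overlapped. The large subunit CMV013C, a plastid gene, was counted at 162, 189 and 284 CPM at HC 0 h and 95, 102 and 89.2 CPM at HC 24 h recovery. The LC 3 h libraries gave 358, 553 and 614 CPM and the LC 24 h libraries 186, 126 and 148 CPM. Both low-CO2 points were above the high-CO2 point at the matching end of the series, but HC 0 h libraries reached the LC 24 h values (log2 difference 1.11 ± 0.44 SE, adjusted p = 0.0654). The small subunit CMV014C behaved alike (0.98 ± 0.50 SE, adjusted p = 0.148). The gene matched to the Rubisco large subunit methyltransferase, CMF050C, named with its values known, separated cleanly with 435 to 619 CPM (median 471) at low CO2 and 77.8 to 96.6 CPM (median 86.2) at high CO2 (log2 difference 2.55 ± 0.11 SE, adjusted p = 4.93e-08).

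In plants, ammonia released by glycine cleavage is recaptured by the plastid glutamine synthetase GS2. Where glutamine synthetase is located in this alga was not tested. CMI233C, matched to GS2, was counted at 793, 981 and 959 CPM at HC 0 h and 711, 738 and 756 CPM at HC 24 h recovery. Its low-CO2 libraries held 4912, 6691 and 6732 CPM at LC 3 h and 1811, 2280.3 and 2253 CPM at LC 24 h. Low CO2 stood 5-fold above high CO2 (log2 difference 2.32 ± 0.36 SE, adjusted p = 0.000386). Among the 9 tested nitrogen assimilation genes it and the ammonium transporter CMK126C (log2 difference 0.55 ± 0.09 SE, adjusted p = 0.000745) were wholly above and the other 7 were not called. That is 22.2% wholly above, beside 11.4% of all tested genes. Glutamate synthase CMV060C, which works with glutamine synthetase, had a log2 difference of 0.21 ± 0.19 SE. Nitrate reductase CMG019C spread widely, from 4.09 to 208 CPM at LC 24 h alone, and was not called (log2 difference -0.49 ± 0.73 SE).

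Several of the strongest separations had no tie to the lists above. The widest was CML339C, matched to YUC6, a flavin monooxygenase of auxin synthesis in Arabidopsis. It was counted at 8.6, 13.5 and 12.3 CPM at HC 0 h and 24.5, 72.1 and 81.4 CPM at HC 24 h recovery. Under low CO2 there were 3349.7, 4678 and 4509 CPM at LC 3 h and 3327, 4279 and 4185 CPM at LC 24 h. The lowest low-CO2 library was 5.35 log2 units above the highest high-CO2 library (log2 difference 6.83 ± 0.66 SE, adjusted p = 1.35e-05), and recovery was higher than HC 0 h (log2 difference 2.37 ± 0.39 SE, adjusted p = 0.00498). CMT172C, matched to an AAA-type ATPase with ankyrin repeats, was among the most abundant of these RNAs with 5322 to 13722 CPM (median 8352) at low CO2 and 279 to 559 CPM (median 420) at high CO2 (log2 difference 4.45 ± 0.33 SE, adjusted p = 1.84e-06). Adenylate kinase CMT384C, which balances adenine nucleotides, had 808 to 1925 CPM (median 1188) at low CO2 and 38.1 to 89.3 CPM (median 70.3) at high CO2 (log2 difference 4.33 ± 0.31 SE, adjusted p = 1.4e-06). SAICAR synthetase CME023C (PUR7) of purine synthesis had 1398 to 5429 CPM (median 3048) at low CO2 and 225 to 435 CPM (median 368) at high CO2 (log2 difference 3.30 ± 0.39 SE, adjusted p = 6.26e-05). Haloacid dehalogenase-like hydrolases, a phosphatase superfamily grouped after their values were seen, had 5 of 14 genes wholly above and none wholly below, led by CMT388C with 643 to 1999.6 CPM (median 1269) at low CO2 and 57.7 to 78.2 CPM (median 69.3) at high CO2 (log2 difference 4.28 ± 0.31 SE, adjusted p = 1.4e-06) and CMJ188C with a log2 difference of 3.34 ± 0.27 SE. The functional category of acid and other phosphatases held 6 of 10 genes wholly above and 2 wholly below. Of all tested genes, 11.4% were wholly above and 7.99% wholly below.

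Both homologs of the chloroplast stem-loop binding proteins, which bind plastid RNA, rose together. CMH047C (CSP41B) was counted at 122, 165 and 166 CPM at HC 0 h and 137, 225 and 249.7 CPM at HC 24 h recovery. Low CO2 gave 2249, 3200.4 and 3337 CPM at LC 3 h and 986, 1353 and 1455 CPM at LC 24 h (log2 difference 3.56 ± 0.34 SE, adjusted p = 1.35e-05). CML047C (CSP41A), named with its values known, had 800 to 2159 CPM (median 1108) at low CO2 and 105 to 185 CPM (median 147) at high CO2 (log2 difference 3.21 ± 0.29 SE, adjusted p = 9.7e-06). Of 143 tested genes of the plastid genome, 36 were called higher and 2 lower, 12 were wholly above and 1 wholly below, with a median log2 difference of 0.53. These are 25.2% and 1.4% called, beside 18.9% and 16.8% of all tested genes, and 8.39% and 0.699% without overlap, beside 11.4% and 7.99%. Plastid RNA in poly(A)-selected libraries is sampled only in part, and what share of it was captured was not measured. Photosystem II core genes illustrate the spread, since psbB (CMV124C) was wholly above with 19.2 to 47.4 CPM (median 34) at low CO2 and 5.71 to 15.7 CPM (median 13.2) at high CO2 whereas psbA (CMV047C) was called higher with overlap and ran from 24.2 to 355 CPM at low CO2. Without HC 0 h, LC 3 h, recovery or library 3 of LC 3 h, psbA was not called (adjusted p = 0.192, 0.677, 0.101 and 0.0532).

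Of 203 tested transporters, 29 were wholly above (14.3%) and 10 wholly below (4.93%), beside 11.4% and 7.99% of all tested genes. The calcium-activated potassium channel homologs CMP253C, a weak match, and CMJ195C had 318 to 544 CPM (median 406) at low CO2 and 26.8 to 41.1 CPM (median 34.6) at high CO2 (log2 difference 3.61 ± 0.19 SE, adjusted p = 1.4e-07) and 259 to 519 CPM (median 315) at low CO2 and 81.5 to 104 CPM (median 90.2) at high CO2 (log2 difference 2.01 ± 0.17 SE, adjusted p = 4.57e-06). Mitochondrial carriers matched to S-adenosylmethionine carriers moved both ways: CMP064C and CMS453C rose by 2.50 and 1.76 on the log2 scale, whereas CMR073C, CMC177C and CMM334C lay wholly below at -0.39, -0.51 and -0.58. The ABC transporter homolog CMN105C, matched to the mitochondrial exporter ATM3, had a log2 difference of 1.97 ± 0.23 SE. On the falling side, CML262C, matched to the metal transporter NRAMP1, had 377 to 2125 CPM (median 1433) at low CO2 and 2556 to 3299.9 CPM (median 2845) at high CO2 (log2 difference -1.18 ± 0.38 SE, adjusted p = 0.0269). It was not called without HC 0 h or recovery (adjusted p = 0.186 and 0.0727).

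Among regulators, 25 of 152 tested transcription regulator genes were wholly above (16.4%) and 7 wholly below (4.61%), beside 11.4% and 7.99% of all tested genes. Of 77 protein kinase genes, 13 were wholly above (16.9%) and 6 wholly below (7.79%). CMC016C, a MYND-type zinc finger protein, had 141 to 304 CPM (median 181) at low CO2 and 37.5 to 61.5 CPM (median 47.2) at high CO2 (log2 difference 2.13 ± 0.21 SE, adjusted p = 1.35e-05). The DNA-binding protein CMS147C had a log2 difference of 0.89 ± 0.10 SE and the kinase CMN159C of 1.09 ± 0.10 SE. The homolog of STN7, CMS463C, the kinase that moves light-harvesting antenna between photosystems in plants, was wholly below (log2 difference -0.75 ± 0.11 SE, adjusted p = 0.000204). Acetyl-CoA carboxylase CMM188C, the first committed step of fatty acid synthesis, rose with 833 to 1896 CPM (median 1095) at low CO2 and 239 to 303 CPM (median 283) at high CO2 (log2 difference 2.20 ± 0.22 SE, adjusted p = 1.66e-05), as did the fibrillin family protein CMJ097C of plastid lipid bodies (2.28 ± 0.18 SE). The fatty acid and lipid list held 7 of 64 genes wholly above (10.9%) and 4 wholly below (6.25%), near the shares of all tested genes.

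Some separated genes were neighbours on the chromosome. Among 4518 pairs of next-neighbour protein-coding genes that were both tested, 89 pairs (1.97%) were both wholly above, 45 (0.996%) both wholly below and 93 separated in opposite directions. Of all tested genes, 11.4% were wholly above and 7.99% wholly below, and the number of pairs these shares alone would give was not computed. Of the pairs in the same direction, 14 had both genes at least 2-fold apart between the CO2 levels, and all 14 were wholly above. Among single genes, 185 wholly above and 44 wholly below were at least 2-fold apart, so the direction of the 14 pairs is not a result about neighbours. They include the run CMJ097C, CMJ098C and CMJ099C of the fibrillin, a prolyl-tRNA synthetase and THFS (log2 differences 2.28, 1.09 and 3.16), and CMT071C with CMT072C, homologs of methylcrotonyl-CoA carboxylase and isovaleryl-CoA dehydrogenase, which act in leucine breakdown (1.19 and 1.79). The carbonic anhydrase CMT416C lay next to CMT418C, a weak match to a bifunctional aspartate kinase (5.82 and 2.45). Both PEX5-like CMK124C and PEX6-like CML252C lay next to a gene without a description, CMK122C and CML253C (1.13 and 1.33). The mutase family gene CMN311C lay next to the RWP-RK domain gene CMN310C (1.03). The zinc-binding protein CMM036C, a weak match, and the EMB2454 homolog CMM141C lay next to CMM037C and CMM142C, both without a description (1.94 and 1.47, 2.24 and 1.03). Alanine aminotransferase CMM066C lay next to the membrane protein CMM067C (1.66 and 3.63).

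Of these pairs, 4 fall into blocks of like descriptions. A copper amine oxidase, which oxidises primary amines to aldehydes, lies next to a BOR4-like gene at both sites (CMI002C with CMI004C, and CMT003C with CMT006C). CMI002C was counted at 13.4, 11.9 and 8.94 CPM at HC 0 h and 16.2, 9.8 and 7.41 CPM at HC 24 h recovery. The low-CO2 values were 272, 446 and 444 CPM at LC 3 h and 228, 289 and 293 CPM at LC 24 h (log2 difference 4.87 ± 0.25 SE, adjusted p = 1.4e-07). Its relative CMT003C was counted at 8.6, 4.42 and 4.64 CPM at HC 0 h and 11.2, 6.55 and 5.6 CPM at HC 24 h recovery. Levels at low CO2 were 17.4, 18.1 and 16.5 CPM at LC 3 h and 42.7, 45.5 and 40.1 CPM at LC 24 h (log2 difference 2.14 ± 0.34 SE, adjusted p = 0.000479). LC 24 h minus LC 3 h gave a log2 difference of -0.52 ± 0.26 SE, adjusted p = 0.118 for CMI002C. For CMT003C it was 1.30 ± 0.26 SE, adjusted p = 0.00208. In the other block, a gene matched to the meiotic protein SPO11-2 lies next to a BolA-like gene at both sites, with log2 differences of 1.26 and 1.31 for CML010C and CML011C and of 1.17 and 1.27 for CMR274C and CMR275C. Where reads fit both sites, the values of the copies are uncertain.

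Genes without a description made up 149 of the 551 wholly above and 79 of the 386 wholly below, beside 1484 of all 4833 tested genes. The largest upward difference of a gene without overlap among them was that of CMT050C, counted at 29.6, 27.1 and 29.5 CPM at HC 0 h and 26.2, 29.7 and 27.6 CPM at HC 24 h recovery. The LC 3 h libraries gave 186, 336 and 338 CPM and the LC 24 h libraries 188, 214 and 206 CPM (log2 difference 3.11 ± 0.17 SE, adjusted p = 2.64e-07). CMR108C had 659 to 1385 CPM (median 875) at low CO2 and 159.7 to 174 CPM (median 164) at high CO2 (log2 difference 2.61 ± 0.18 SE) and CMH133C had 261 to 941 CPM (median 453) at low CO2 and 70.4 to 109 CPM (median 91.7) at high CO2 (2.65 ± 0.32 SE). Further genes among the 20 largest differences each way carry only a general description. CMF187C, a small conjugating protein ligase, rose by 3.38 on the log2 scale. The alpha/beta fold hydrolase CMT329C had 22.1 to 75.9 CPM (median 46.8) at low CO2 and 91.3 to 179 CPM (median 163) at high CO2 (log2 difference -1.72 ± 0.29 SE, adjusted p = 0.000789), the oxidoreductases CMR475C and CMO306C had log2 differences of -1.43 ± 0.16 and -1.41 ± 0.36 SE, the RNA binding protein CMN108C of -1.38 ± 0.22 SE and the pentatricopeptide repeat protein CMR044C of -1.29 ± 0.21 SE. Among genes without a description, CMR182C had 56.1 to 341 CPM (median 119) at low CO2 and 455 to 875 CPM (median 666) at high CO2 (log2 difference -2.22 ± 0.39 SE, adjusted p = 0.001).

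Glycolysis genes separated in both directions, more of them downward. Of 21 tested glycolysis genes, 9 were called lower (42.9%) and 5 higher (23.8%), beside 16.8% and 18.9% of all tested genes. Wholly below were 6 (28.6%) and wholly above 4 (19.0%), beside 7.99% and 11.4%. The median log2 difference was -0.29. The largest fall of a gene without overlap and with a description belonged to CMH052C, a subunit (beta) of the phosphofructokinase that uses pyrophosphate, which interconverts fructose 6-phosphate and fructose 1,6-bisphosphate. It was counted at 379, 324 and 331 CPM at HC 0 h and 408, 242 and 236 CPM at HC 24 h recovery. Its low-CO2 libraries held 114, 49.6 and 55.3 CPM at LC 3 h and 126, 52.4 and 55.8 CPM at LC 24 h. Replicate 1 was the highest library at each of the 4 time points, and even so no low-CO2 library reached a high-CO2 library (log2 difference -2.08 ± 0.27 SE, adjusted p = 0.000119). Glucose-6-phosphate isomerase CMO124C had 152 to 222 CPM (median 212) at low CO2 and 366 to 511 CPM (median 427) at high CO2 (log2 difference -1.14 ± 0.13 SE, adjusted p = 4.57e-05) and its relative CMT497C had a log2 difference of -0.63 ± 0.12 SE. Aldolase CME145C had 865 to 1106 CPM (median 991) at low CO2 and 1448 to 2033 CPM (median 1813) at high CO2 (log2 difference -0.85 ± 0.13 SE, adjusted p = 0.000454).

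Further genes of glycolysis were wholly below. Glyceraldehyde-3-phosphate dehydrogenase CMM167C (GAPCP-1) was counted at 603, 523 and 508 CPM at HC 0 h and 573, 296 and 283 CPM at HC 24 h recovery. Under low CO2 there were 254, 137 and 123 CPM at LC 3 h and 91.4, 62.9 and 53.2 CPM at LC 24 h (log2 difference -1.95 ± 0.36 SE, adjusted p = 0.00136). Phosphoglycerate mutase CMK188C was counted at 476, 515 and 523 CPM at HC 0 h and 364, 274 and 270.2 CPM at HC 24 h recovery. Low CO2 gave 224, 193 and 222 CPM at LC 3 h and 88, 46.4 and 44.7 CPM at LC 24 h (log2 difference -1.57 ± 0.42 SE, adjusted p = 0.0115). Without HC 0 h the mutase was not called (adjusted p = 0.169). Enolase CMK131C (LOS2), from the functional category and not the list, had 367 to 685 CPM (median 519) at low CO2 and 845 to 1184 CPM (median 1024) at high CO2 (log2 difference -0.95 ± 0.19 SE, adjusted p = 0.00234), and pyruvate kinase CMK041C a log2 difference of -0.52 ± 0.11 SE. Other genes of the pathway or its control rose. The aldehyde dehydrogenase CMT034C, matched to the non-phosphorylating glyceraldehyde-3-phosphate dehydrogenase ALDH11A3, rose with 785 to 1678 CPM (median 1077) at low CO2 and 326 to 407 CPM (median 361) at high CO2 (log2 difference 1.69 ± 0.20 SE, adjusted p = 5.56e-05). The homolog of F2KP, CMN085C, which sets the level of the regulator fructose 2,6-bisphosphate, rose by 1.02 on the log2 scale (adjusted p = 5.96e-05), and the mutase family member CMN311C by 1.56.

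Lactate dehydrogenase, which reduces pyruvate to lactate, is encoded by 5 tested genes here. Of these, 4 were wholly below (80.0%), beside 7.99% of all tested genes. CMK006C was counted at 319.8, 265 and 238 CPM at HC 0 h and 217, 147 and 149 CPM at HC 24 h recovery. The low-CO2 values were 90.4, 45.3 and 39.7 CPM at LC 3 h and 113, 106 and 112 CPM at LC 24 h (log2 difference -1.40 ± 0.29 SE, adjusted p = 0.00283). CMJ002C, CMI306C and CMA145C had log2 differences of -1.27 ± 0.24, -1.13 ± 0.29 and -0.93 ± 0.23 SE. All 3 LC 3 h libraries of each of these 4 genes lay below all 3 LC 24 h libraries. Without HC 0 h, CMK006C, CMJ002C and CMA145C were not called (adjusted p = 0.0795, 0.0505 and 0.111). The fifth, CMC188C, overlapped (0.34 ± 0.28 SE, adjusted p = 0.353). The 5 genes carry the same description, and reads that fit more than 1 of them leave the separate values uncertain.

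Of 23 tested starch and glucan genes, 12 were called lower (52.2%) and 1 higher (4.35%), beside 16.8% and 18.9% of all tested genes. Wholly below were 8 (34.8%) and wholly above 1 (4.35%), beside 7.99% and 11.4%. Both degrading and building enzymes fell. Alpha-glucan phosphorylase CMD184C (PHS2), which releases glucose 1-phosphate, was counted at 1694, 1556 and 1457 CPM at HC 0 h and 1507, 1158 and 1138 CPM at HC 24 h recovery. Levels at low CO2 were 840.2, 435 and 432 CPM at LC 3 h and 454, 363 and 368 CPM at LC 24 h (log2 difference -1.56 ± 0.22 SE, adjusted p = 0.000193). The phosphoglucan phosphatase homolog CMT465C (SEX4) had a log2 difference of -0.97 ± 0.18 SE. Branching enzyme CMH144C (SBE2.2), which builds the polymer, had 168 to 281 CPM (median 224) at low CO2 and 339.9 to 436 CPM (median 372) at high CO2 (log2 difference -0.76 ± 0.14 SE, adjusted p = 0.00114), and phosphoglucomutase CMC121C had a log2 difference of -0.62 ± 0.10 SE. In the oxidative pentose phosphate pathway, which supplies NADPH, both dehydrogenases fell: glucose-6-phosphate dehydrogenase CMR014C had 70.9 to 136 CPM (median 86.2) at low CO2 and 162 to 267 CPM (median 227) at high CO2 (log2 difference -1.19 ± 0.18 SE, adjusted p = 0.000414) and 6-phosphogluconate dehydrogenase CMS195C had 174 to 234 CPM (median 232) at low CO2 and 327 to 399 CPM (median 344) at high CO2 (log2 difference -0.70 ± 0.09 SE, adjusted p = 0.000134).

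Of 21 tested tricarboxylic acid cycle genes, 8 were called lower (38.1%) and 3 higher (14.3%), beside 16.8% and 18.9% of all tested genes. Wholly below were 6 (28.6%) and wholly above 2 (9.52%), beside 7.99% and 11.4%. NAD-dependent isocitrate dehydrogenase CMS272C was counted at 196, 184 and 174 CPM at HC 0 h and 156, 121 and 116 CPM at HC 24 h recovery. The LC 3 h libraries gave 100, 60.2 and 58.1 CPM and the LC 24 h libraries 53.5, 40.2 and 38.8 CPM (log2 difference -1.43 ± 0.23 SE, adjusted p = 0.000476). Malate dehydrogenase CMT611C had a log2 difference of -1.24 ± 0.26 SE (adjusted p = 0.0613 without HC 0 h), fumarase CMD058C of -0.64 ± 0.10 SE, and both ATP citrate lyase subunits, CMB118C and CMB128C, which make cytosolic acetyl-CoA, of -0.35 ± 0.06 and -0.48 ± 0.07 SE. Citrate synthase CMA040C, matched to the peroxisomal isoform CSY3 of Arabidopsis, rose instead, with 204 to 252 CPM (median 221) at low CO2 and 84.5 to 125 CPM (median 115) at high CO2 (log2 difference 1.02 ± 0.10 SE, adjusted p = 1.22e-05).

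Methionine and methyl-group genes were grouped after their values were seen. Of 18 tested, 8 were wholly below (44.4%) and 3 wholly above (16.7%), beside 7.99% and 11.4% of all tested genes. Methionine synthase CMJ234C was counted at 1292, 1364 and 1523 CPM at HC 0 h and 986, 1241 and 1306 CPM at HC 24 h recovery. Its low-CO2 libraries held 617, 675 and 771 CPM at LC 3 h and 392, 392 and 401 CPM at LC 24 h (log2 difference -1.25 ± 0.20 SE, adjusted p = 0.000542). Methionine adenosyltransferase CMN227C (MAT3), which makes the methyl donor S-adenosylmethionine, was counted at 687, 701 and 700.4 CPM at HC 0 h and 647, 567 and 598 CPM at HC 24 h recovery. Under low CO2 there were 421, 331 and 351 CPM at LC 3 h and 168, 127 and 133 CPM at LC 24 h (log2 difference -1.35 ± 0.29 SE, adjusted p = 0.0033). Its adjusted p without HC 0 h was 0.0545. S-adenosylmethionine decarboxylase CMO012C of polyamine synthesis had 272 to 571 CPM (median 394) at low CO2 and 652 to 994 CPM (median 887) at high CO2 (log2 difference -1.10 ± 0.21 SE, adjusted p = 0.00173). The 3 that rose were the 2 carriers given above and acireductone dioxygenase CMQ369C (ARD4) of the methionine salvage cycle, with 224 to 584 CPM (median 349.7) at low CO2 and 49 to 63.1 CPM (median 59.3) at high CO2 (log2 difference 2.75 ± 0.25 SE, adjusted p = 8.11e-06). One of the 8, CMQ337C, is a homolog of isopropylmalate synthase of leucine synthesis and entered through its description. The carriers CMR073C, CMC177C and CMM334C, given above as wholly below, have the same kind of match as the 2 that rose. The 8 are therefore not to be read as methionine enzymes only.

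**Figure D3:**
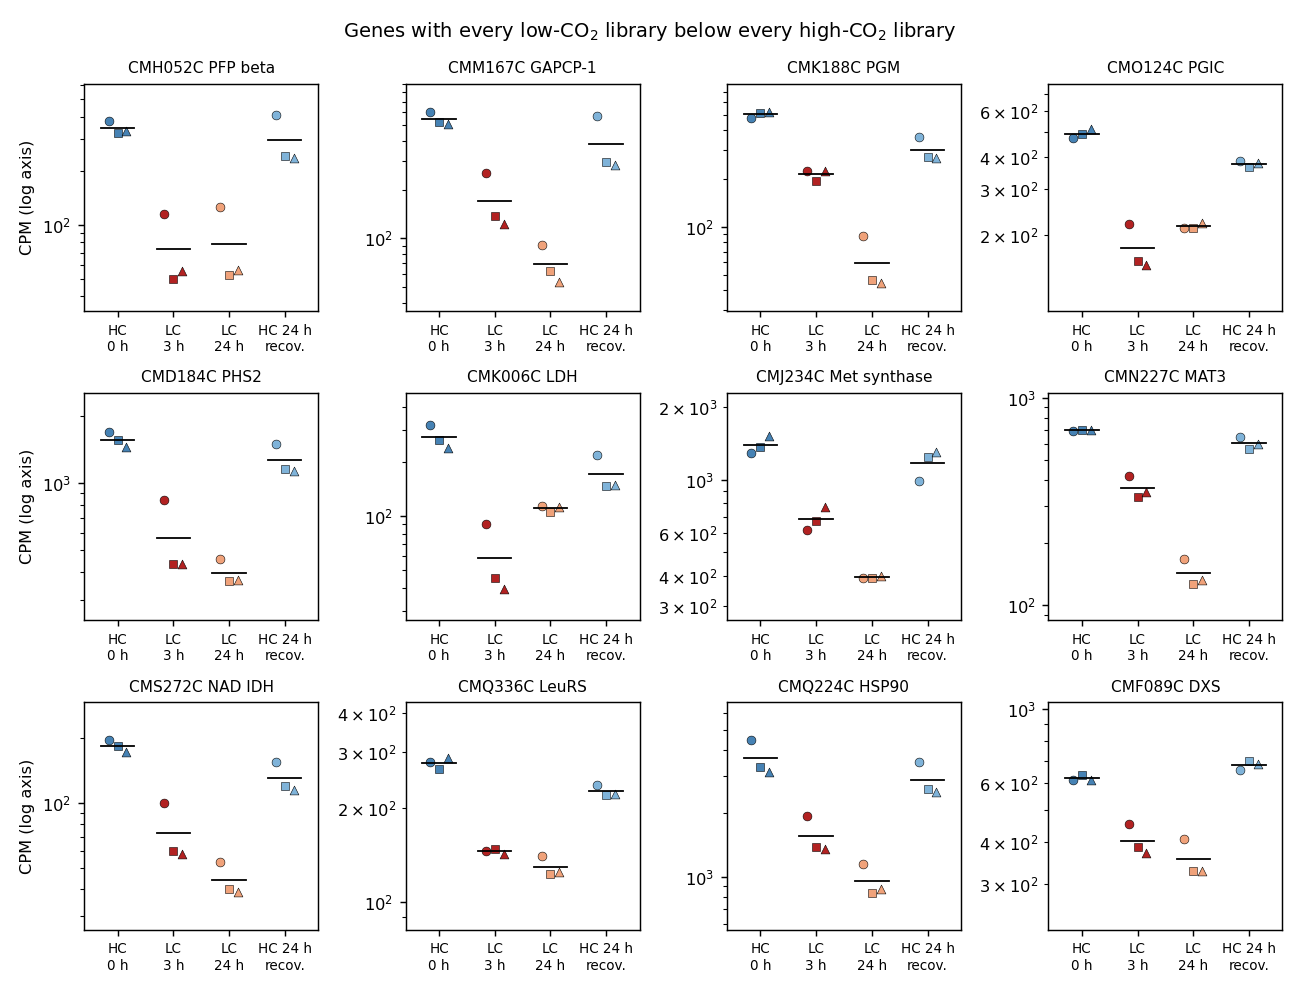
CPM on a log axis for 12 genes wholly below at low CO2, by time point; symbols and bars as for the rising genes. Red and orange low-CO2 points lie below all blue high-CO2 points in every panel, with a widest gap of 0.90 log2 units for PFP beta (CMH052C), and LDH (CMK006C) is lower at LC 3 h than at LC 24 h.

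The cytosolic ribosome genes that were called were mostly lower. Of 107 tested, 50 were called lower (46.7%) and 7 higher (6.54%), beside 16.8% and 18.9% of all tested genes. In the same list 16 were wholly below (15.0%) and 3 wholly above (2.8%), beside 7.99% and 11.4%. The median log2 difference was -0.51. CML304C (RPL35aC) had 52.1 to 144 CPM (median 79.9) at low CO2 and 167 to 203 CPM (median 185) at high CO2 (log2 difference -1.11 ± 0.25 SE, adjusted p = 0.0039), but was not called without HC 0 h (adjusted p = 0.0607). One of the 3 wholly above, CMV084C, is a plastid-encoded protein that entered through its description. Of 45 aminoacyl-tRNA synthesis genes, which load amino acids on tRNA, 20 were called lower (44.4%) and 3 higher (6.67%). Wholly below were 10 (22.2%) and wholly above 2 (4.44%). Leucyl-tRNA synthetase CMQ336C had 123 to 148 CPM (median 141) at low CO2 and 219.6 to 288 CPM (median 251) at high CO2 (log2 difference -0.88 ± 0.09 SE, adjusted p = 1.84e-05), and CMT280C and CMJ218C, for isoleucine and aspartate, had log2 differences of -0.58 ± 0.10 and -0.54 ± 0.07 SE. In the ribosome biogenesis list of 22 tested genes, 3 were wholly above and 3 wholly below (13.6% each). Those wholly above include CME023C (PUR7) of purine synthesis, given above, which entered through its description. Called higher were 4 (18.2%) and lower 7 (31.8%), and the median log2 difference was 0.0346. Elongation factor 1-beta CME120C fell by 1.20 on the log2 scale (SE 0.15) and the pseudouridine synthase homolog CMM044C (CBF5), which modifies ribosomal RNA, had 27.4 to 56.6 CPM (median 34.8) at low CO2 and 68.6 to 124 CPM (median 97.1) at high CO2 (log2 difference -1.38 ± 0.20 SE, adjusted p = 0.000262).

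Of 70 chaperone genes, 13 were wholly below (18.6%) and 9 wholly above (12.9%), beside 7.99% and 11.4% of all tested genes. HSP90 homolog CMQ224C, an abundant folding factor, was counted at 4482, 3313 and 3137 CPM at HC 0 h and 3517, 2621 and 2516 CPM at HC 24 h recovery. Low CO2 gave 1934, 1379 and 1355 CPM at LC 3 h and 1147, 841 and 879 CPM at LC 24 h (log2 difference -1.38 ± 0.24 SE, adjusted p = 0.000805). Of 14 chaperonin genes, grouped after their values were seen, 12 were called lower (85.7%) and 1 higher (7.14%), beside 16.8% and 18.9% of all tested genes. Wholly below were 4 (28.6%) and wholly above 1 (7.14%), and the median log2 difference was -0.83. Mitochondrial-type co-chaperonin CMF129C had 21.6 to 73.7 CPM (median 27.9) at low CO2 and 87.4 to 141 CPM (median 99.1) at high CO2 (log2 difference -1.58 ± 0.29 SE, adjusted p = 0.00131), HSP60 homolog CMQ270C had a log2 difference of -1.29 ± 0.29 SE (adjusted p = 0.0923 without HC 0 h), and TCP-1 subunits CMT207C, CMG005C and CME197C of -1.13 ± 0.20, -0.90 ± 0.09 and -0.83 ± 0.10 SE. The single riser, CMV086C, is encoded in the plastid (1.52 ± 0.21 SE).

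The isoprenoid category held 8 of 35 genes wholly below (22.9%) and 1 wholly above (2.86%), beside 7.99% and 11.4% of all tested genes. The plastid pathway starts from pyruvate and glyceraldehyde 3-phosphate. Its first enzyme, deoxyxylulose phosphate synthase CMF089C (DXS), had 329 to 452 CPM (median 378) at low CO2 and 612 to 696 CPM (median 645) at high CO2 (log2 difference -0.78 ± 0.10 SE, adjusted p = 9.34e-05), whereas the second, reductoisomerase CMG148C (DXR), was the gene wholly above (0.70 ± 0.17 SE). The next enzymes, CMH115C (ISPD) and CMS444C (ISPE), had log2 differences of -0.80 and -0.62. Protein glycosylation had 6 of 13 genes wholly below and none wholly above, among them the sugar transfer enzyme CMQ459C (EBS1, log2 difference -0.82 ± 0.07 SE) and subunits of the oligosaccharide transferase CMK154C and CMK108C (-0.56 ± 0.08 and -0.52 ± 0.09 SE).

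**Figure D4:**
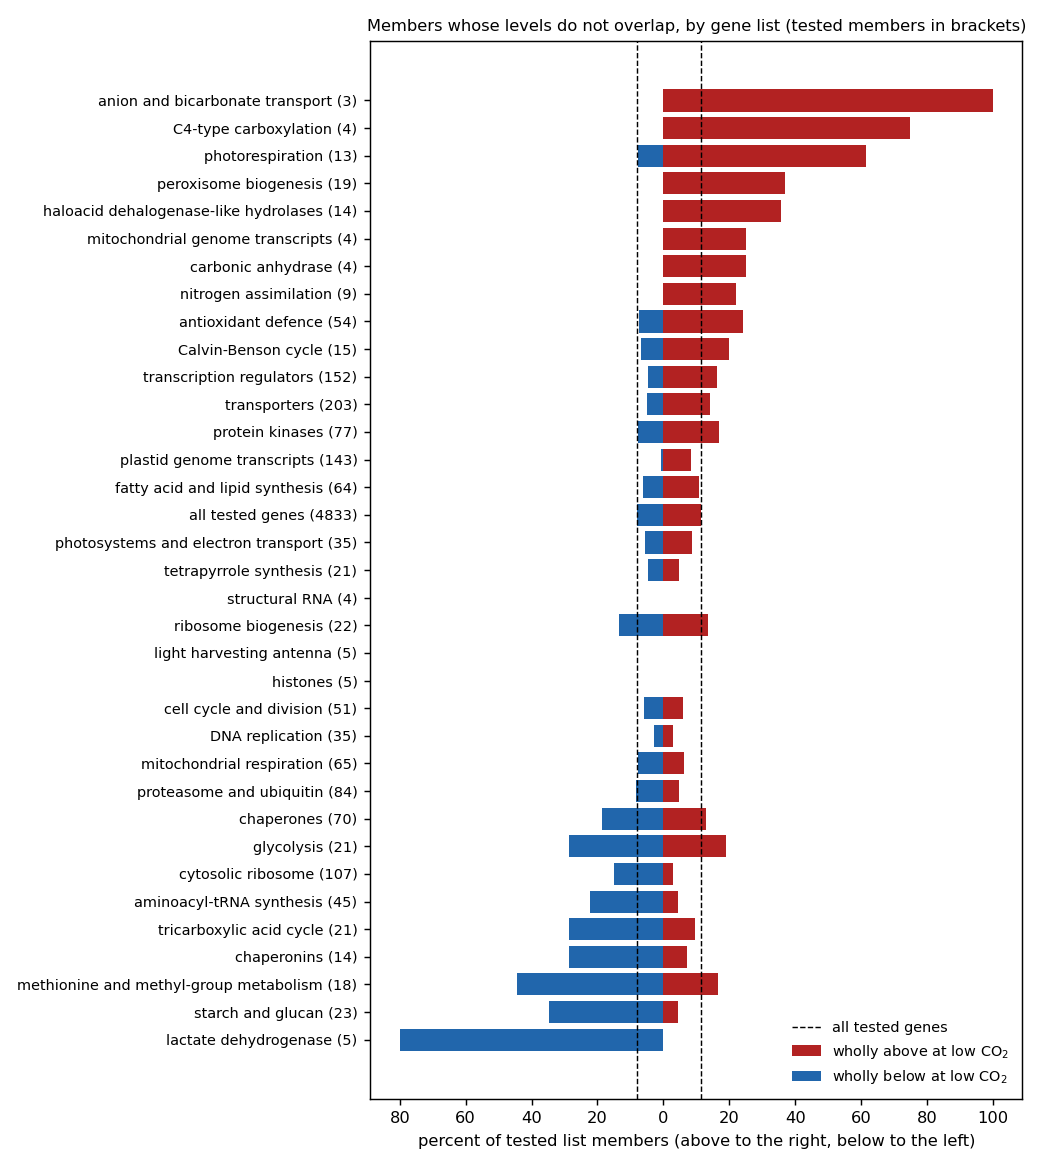
Share of tested members of each gene list that were wholly above (red, to the right) or wholly below (blue, to the left) at low CO2, with the number tested in brackets; dashed lines mark 11.4% and 7.99% of all tested genes. Anion and bicarbonate transport (3 genes, 100.0%), C4-type carboxylation (4 genes, 75.0%) and photorespiration (13 genes, 61.5%) extend furthest to the right and lactate dehydrogenase (5 genes, 80.0%) furthest to the left; 4 lists (peroxisome biogenesis, haloacid dehalogenase-like hydrolases, methionine and methyl-group metabolism, chaperonins) were drawn up after the values were seen.

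Other lists are given beside all tested genes, of which 11.4% were wholly above and 7.99% wholly below. Of 35 photosystem and electron transport genes, 3 were wholly above (8.57%) and 2 wholly below (5.71%). Called higher were 31.4% and called lower 17.1%, beside 18.9% and 16.8% of all tested genes. Of 65 mitochondrial respiration genes, 4 were wholly above (6.15%) and 5 wholly below (7.69%), while 16.9% were called higher and 27.7% lower. Of 21 tetrapyrrole synthesis genes, 1 separated in each direction (4.76% each). Of 84 proteasome and ubiquitin genes, 4 were wholly above (4.76%) and 7 wholly below (8.33%). Of 51 cell cycle and division genes, 3 separated each way (5.88% each), and of 35 DNA replication genes 1 each way (2.86% each). None of the 5 light-harvesting antenna genes, of the 5 histone genes or of the 4 genes listed as structural RNA separated. Among those that did, the ferredoxin-thioredoxin reductase subunit CMP058C, a weak match, fell by 1.00 on the log2 scale (SE 0.15), and protoporphyrinogen oxidase CMB025C of chlorophyll and heme synthesis had a log2 difference of -0.46 ± 0.08 SE.

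The separated genes still varied within each CO2 level. The 4 contrasts of a low with a high time point read the values that chose these genes, so their counts only describe and nothing is read from them. Of the 551 genes wholly above, 443 were called higher in all 4 (470 of all genes, 9.72%), and of the 386 wholly below, 264 were called lower in all 4 (286 of all genes, 5.92%). Between the low-CO2 points, 224 of the genes wholly above were lower at LC 24 h than at LC 3 h and 51 higher, that is 40.7% and 9.26%, beside 31.3% and 22.1% of all tested genes. Of the 20 largest rises with a description, 16 were lower at LC 24 h than at LC 3 h and none higher. Of the genes wholly below, 121 (31.3%) were lower still at LC 24 h and 33 (8.55%) higher.

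The rule keeps only genes whose recovery libraries lie on the same side of the low-CO2 libraries as those of HC 0 h, so genes that stayed near their low-CO2 level cannot be among them and the counts on recovery only describe. Between HC 24 h recovery and HC 0 h, 41 genes wholly above were called higher (7.44%) and 8 lower (1.45%), beside 7.39% and 7.8% of all tested genes. Of the genes wholly below, 1 was higher and 76 lower (19.7%) at recovery. The summed TPM share of the genes wholly above was 6.55% ± 0.135 (SD, n = 3) at HC 0 h and 6.67% ± 0.0362 (SD, n = 3) at recovery, whereas that of the genes wholly below was 13.3% ± 0.122 (SD, n = 3) at HC 0 h and 11.9% ± 0.102 (SD, n = 3) at recovery. The high-CO2 library nearest to the low-CO2 libraries came from recovery for 290 of the 386 genes wholly below and for 340 of the 551 wholly above.

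**Figure D5:**
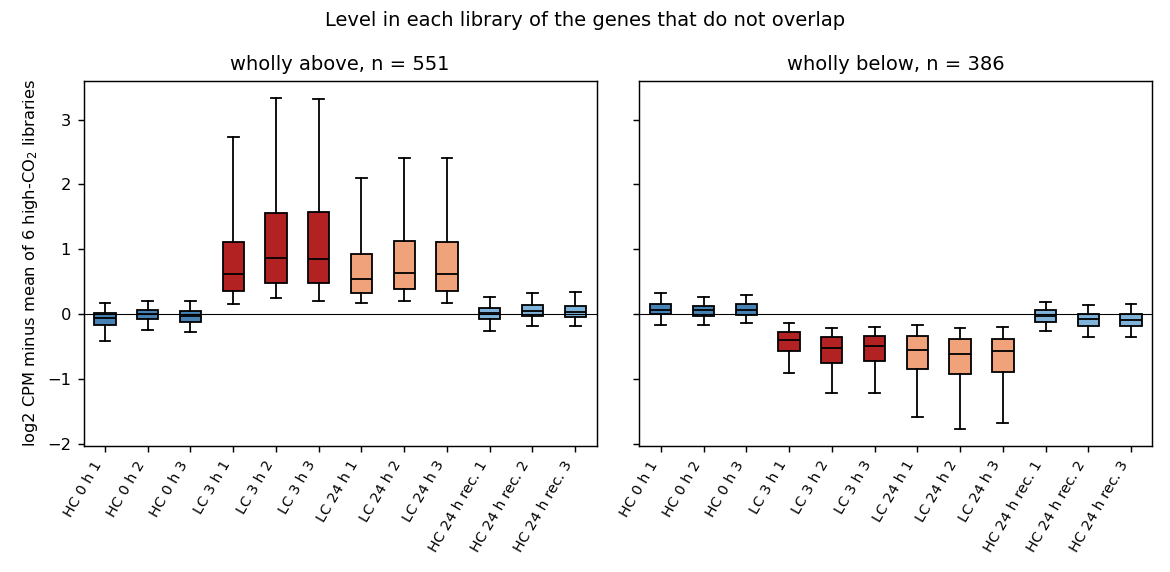
Boxes show, for each library, the log2 CPM of the 551 genes wholly above (left) and the 386 wholly below (right) relative to each gene's mean over the 6 high-CO2 libraries; the line is the median, the box the quartiles and the whiskers the 5th and 95th percentiles. Medians of the genes wholly above run from 0.54 to 0.87 in the low-CO2 libraries, with replicate 1 lowest at both low-CO2 points, and those of the genes wholly below from -0.61 to -0.40.

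Overlap did not mean a small difference. In all, 365 genes called higher and 427 called lower had overlapping levels. The largest at a mean log2 CPM of at least 4 were CMR328C, without a description, at 2.15 to 27.7 CPM (median 4.29) at low CO2 and 10.8 to 117 CPM (median 25.7) at high CO2 (log2 difference -2.49 ± 0.74 SE, adjusted p = 0.0194), glycerol-3-phosphate dehydrogenase CMD113C at 135 to 910.4 CPM (median 278) at low CO2 and 682 to 1252 CPM (median 974) at high CO2 (log2 difference -1.46 ± 0.43 SE, adjusted p = 0.0181) and the TCTP homolog CMQ113C (-1.27 ± 0.46 SE). Upward they were the kelch repeat protein CMP358C, a weak match, at 23.3 to 137 CPM (median 61) at low CO2 and 12.2 to 33 CPM (median 13.9) at high CO2 (log2 difference 2.02 ± 0.46 SE, adjusted p = 0.0047), psbA (CMV047C, 1.83 ± 0.55 SE) and CMH216C (1.77 ± 0.38 SE). Replicate 1 was the highest library of CMR328C and CMD113C at each of the 4 time points. Without HC 0 h, with 9 libraries left, none of these 6 genes was called (adjusted p = 0.0826 for CMR328C, 0.153 for CMD113C, 0.337 for CMQ113C, 0.106 for CMP358C, 0.192 for psbA and 0.0772 for CMH216C). The log2 differences without HC 0 h were -2.62, -1.28, -0.938, 1.76, 1.69 and 1.37 in the same order. CMQ113C was also not called in 7 of the 12 fits that left out 1 library (0.0765 to 0.0864): each of HC 0 h, each of LC 24 h, and library 1 of recovery. CMR328C was not called without library 1 of recovery (0.0513). At the edge of the rule, CMR391C and CMC085C were the last genes wholly above (log2 differences 0.25 and 0.32) and CMH110C and CMT168C (0.48 and 0.15) fell just outside. On the falling side CMQ433C and CMF033C (-0.25 and -0.28) were just inside and CMH058C and CMD173C (-0.15 and -0.14) just outside. There were 3 separated genes that missed the test threshold: CMF174C, CMO246C and CMG202C, with log2 differences of 0.15, 0.12 and -0.16.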

How the data were processed

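RNA from 12 libraries of Cyanidioschyzon merolae was sequenced as paired ends. RSEM, edgeR, Bowtie2 and CASAVA 1.8 are listed without roles, per the submitters' processing notes. The genome build is not given in the sources used here. The authors deposited estimated counts per gene, of which 94% were whole, and TPM, both per library. The table also gives the best Arabidopsis match of each gene with its expectation value.

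The estimated counts were rounded to whole numbers. With edgeR 4.0.16 in R 4.3.3, 137 of 4970 genes were left out by filterByExpr, TMM factors were computed, and low was tested against high CO2 by a robust quasi-likelihood fit with 2 levels, in which differences between time points count as spread (biological coefficient of variation 22.2%, against 14.7% with 4 groups). Contrasts of time points came from a fit with 4 groups. P-values were adjusted by the Benjamini-Hochberg method over all tested genes, within each contrast, at 0.05. CPM used TMM library sizes, and overlap was judged on log2 CPM with a prior count of 2. The fit was tested on simulated data with known changes. Those data held no differences between time points of a CO2 level and no relation between same-numbered libraries. They therefore cannot show how the fit deals with either. DESeq2 1.42.0 served as an alternative, with other scalings, filters, a replicate block and libraries or time points left out.

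Members, lists and tests were chosen with earlier results of these data known. Lists are word matches in the descriptions; the functional categories are the authors'. The naming rule took genes without overlap at a mean log2 CPM of at least 4 (the 20 largest differences each way with a description and 6 without), every member of the 6 carbon and nitrogen lists, up to 3 each way by gap from other lists, the largest called genes with overlap, the genes at the edge of the rule, and neighbouring pairs, of which the text names those with both genes at least 2-fold apart. This gave 214 genes. Other genes were named after their values were seen. Neighbours came from RefSeq assembly ASM9120v1, in which 4738 IDs matched. Sequences and coordinates were not used here.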

Additional observations from a re-analysis of the deposited data

Results flagged for a closer look

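Among the 214 genes that the naming rule chose, 428 sets of 6 libraries (1 for each gene and CO2 level) were searched for a library that stood apart by Dixon's 95% criterion, which chance passes in about 1 of 20 sets. It was met in 12 sets. Library 1 of LC 3 h stood apart in 4 of them, library 1 of HC 24 h recovery in 4, library 2 of HC 0 h in 2 and library 3 of HC 0 h in 2.

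Library 1 of LC 3 h was low for 3 genes. PPDK CMF012C stood at 755 CPM there, beside 1453 to 1861 CPM in the other low-CO2 libraries. Methylcrotonyl-CoA carboxylase CMT071C stood at 355 CPM, beside 432 to 480.3 CPM, and the ammonium transporter CMT526C, whose CO2 levels overlapped, at 285 CPM, beside 557 to 759 CPM. The same library was high for alpha-glucan phosphorylase CMD184C, at 840.2 CPM beside 363 to 454 CPM.

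Library 1 of HC 24 h recovery was the low one for protoporphyrinogen oxidase CMB025C (228 CPM, the others 273 to 292) and for the ubiquitin family gene CMS291C (446 CPM, the others 522 to 553). It was the high one for the APC6 homolog CMF102C (243 CPM, the others 210.1 to 219) and for the kelch repeat gene CMP358C (33.0 CPM, the others 12.2 to 15.5). Library 2 of HC 0 h was high for CMD173C, without a description (195 CPM, the others 165 to 173), and low for the lysophosphatidate acyltransferase homolog CME109C (143 CPM, the others 161 to 171). Library 3 of HC 0 h was high for 2 organelle genes, glutamate synthase CMV060C (669 CPM, the others 452 to 513) and cytochrome oxidase subunit CMW011C (1.01 CPM, the others 0.635 to 0.709).

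The low-CO2 effect on the alpha-type carbonic anhydrase CMI270C differed between the time points. LC 3 h minus HC 0 h gave a log2 difference of 0.72 ± 0.21 SE, adjusted p = 0.0172. LC 24 h minus HC 24 h recovery gave -0.65 ± 0.21 SE, adjusted p = 0.0244. The difference between these differences was -1.37 ± 0.30 SE, adjusted p = 0.0111 by edgeR's quasi-likelihood test.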

How the results depend on the processing

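The counts depended on which time points and which spread entered, while no called gene became called in the opposite direction under any alternative fit. Relative-log-expression scaling, no filter on low counts, a filter of 10 CPM in 3 libraries, DESeq2 and the deposited TPM each kept the counts within 1.5 times. DESeq2 called 1033 genes higher and 1002 lower. Of all calls 53.0% were higher, with upper-quartile scaling 43.6% (786 higher, 1017 lower), which moved the median of all genes to -0.0354. That scaling also reversed the order of the sets without overlap, to 462 wholly above and 521 wholly below; the cause was not tested.

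Leaving out HC 0 h left 463 genes higher and 284 lower. Leaving out LC 3 h gave 1414 higher and 1428 lower, with 1391 wholly above and 1282 wholly below. It also turned the log2 difference of CMI270C to -0.95 and that of CMO128C to -0.31, and neither gene was called with all libraries in. Without LC 24 h, 879 genes were wholly above and 723 wholly below, and without HC 24 h recovery 828 and 904; fewer libraries overlap less often by construction. With all 4 replicate 1 libraries left out, an alternative chosen after seeing the data, 953 were wholly above and 848 wholly below. The fit with 4 groups, which takes the difference between time points out of the spread, called 1403 higher and 1365 lower. In all 4 contrasts of time points, 470 were higher and 286 lower. Of the 214 genes of the naming rule, 43 lost their call when 1 of the time points was left out, 39 of them without HC 0 h, and 7 when 1 library was left out. Leaving out 1 library at a time gave 805 to 1133 higher, 675 to 1055 lower, 546 to 756 wholly above and 399 to 690 wholly below, with the top of each range reached without LC 3 h replicate 1.

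With the replicate number as a block, 876 genes were higher and 798 lower. Deviations from the group means of same-numbered libraries correlated above 0.1 in 14 of 18 pairs (-0.0218 to 0.552), and 9 of 12 libraries were closest to their own number, a hint from the data that same-numbered libraries are related. Library 1 of HC 0 h and library 1 of HC 24 h recovery were each other's closest library in log2 CPM (correlation 0.9841). Since not every pair was above 0.1 and the labels give the numbers no meaning, the fit without the block was kept. Its p-values do not take a relation between same-numbered libraries into account. Of the 214 named genes, CMQ113C lost its call under the block (log2 difference -1.26, adjusted p = 0.0754) and CMT526C gained one.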
